A study of Homo sapiens with 12 samples.

Results

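Expression of 33 genes of glycolysis and the pentose phosphate pathway was examined in the ovarian cancer line OVCAR8 after exposure to EC359, to trametinib or to both. The members were chosen by name, as genes that carry glucose into the cell and to lactate, set the fate of pyruvate or belong to the pentose phosphate pathway, and all 33 were among the 26485 genes of the deposited files. The choice was made with earlier results of these data known. Counts of members set against all genes are therefore a description, and not an independent test of these pathways. OVCAR8 is an established human ovarian cancer cell line with mutant Ras, and it was the only line sequenced. Cells received vehicle (control), 150 nM EC359, an inhibitor of the leukemia inhibitory factor receptor, 100 nM trametinib, a MEK inhibitor, or both agents at these doses (combination group), in each case for 7 h. Polyadenylated RNA was sequenced in 3 libraries per group, 12 in all, and the libraries held 24790392 to 32467283 estimated counts. The labels do not say whether the replicates were separate cultures, so p-values measure the spread between these libraries, which may be technical. In bulk RNA of this kind, fewer cells that express a gene and less RNA per cell cannot be told apart.

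Glycolysis converts glucose to pyruvate in the cytosol, and its flux is set mainly at glucose uptake, at hexokinase and at phosphofructokinase. Pyruvate is then reduced to lactate and exported, or enters mitochondria through the pyruvate dehydrogenase complex, which the PDK kinases switch off and the PDP phosphatases switch on. The pentose phosphate pathway branches off after hexokinase and supplies NADPH and ribose. Cancer cells, ovarian carcinoma included, often turn much of their glucose into lactate even with oxygen present.

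The promoters of a few members are shown first. HK2, PDK1 and SLC2A1 had some of the largest changes of all members, and LDHA changed little. Of the motif marked below (ACGTG), the nearest promoter of LDHA held 5 matches and that of HK2 held 2. The nearest promoters of PDK1 and SLC2A1 held 0. Each line gives the 250 bases before a RefSeq start site of GRCh38.p14, read 5′ to 3′ on the gene's strand. Capitals mark ACGTG on either strand (written CACGT where it lies on the other strand), which is part of the E-box CACGTG. Basic helix-loop-helix factors such as MYC and MLX bind the full E-box. A mark outside a full CACGTG is not this E-box, as with all marks of HK2 start 1 and PDK1 start 2.
HK2 start 1, chr2:74833877-74834126 (plus strand): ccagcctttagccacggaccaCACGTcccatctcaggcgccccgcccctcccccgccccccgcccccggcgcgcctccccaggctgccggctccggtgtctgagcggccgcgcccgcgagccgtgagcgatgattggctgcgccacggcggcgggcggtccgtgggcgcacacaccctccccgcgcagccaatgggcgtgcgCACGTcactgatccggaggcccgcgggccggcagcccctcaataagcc
HK2 start 2, chr2:74834920-74835169 (plus strand): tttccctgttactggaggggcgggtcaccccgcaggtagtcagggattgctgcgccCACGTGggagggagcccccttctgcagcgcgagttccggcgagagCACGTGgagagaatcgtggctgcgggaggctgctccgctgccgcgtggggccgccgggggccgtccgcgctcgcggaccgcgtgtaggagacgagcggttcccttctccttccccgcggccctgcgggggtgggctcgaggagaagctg
PDK1 start 1, chr2:172555123-172555372 (plus strand): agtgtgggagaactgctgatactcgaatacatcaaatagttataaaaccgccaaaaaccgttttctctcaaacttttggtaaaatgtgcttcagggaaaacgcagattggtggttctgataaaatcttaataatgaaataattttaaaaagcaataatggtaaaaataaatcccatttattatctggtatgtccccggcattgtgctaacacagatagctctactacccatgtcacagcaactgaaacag
PDK1 start 2, chr2:172555840-172556089 (plus strand): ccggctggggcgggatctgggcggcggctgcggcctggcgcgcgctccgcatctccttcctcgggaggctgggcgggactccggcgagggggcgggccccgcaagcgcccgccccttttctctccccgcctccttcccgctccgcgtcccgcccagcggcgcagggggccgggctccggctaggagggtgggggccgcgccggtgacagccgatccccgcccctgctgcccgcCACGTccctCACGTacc
SLC2A1 start 1, chr1:42958869-42959118 (minus strand): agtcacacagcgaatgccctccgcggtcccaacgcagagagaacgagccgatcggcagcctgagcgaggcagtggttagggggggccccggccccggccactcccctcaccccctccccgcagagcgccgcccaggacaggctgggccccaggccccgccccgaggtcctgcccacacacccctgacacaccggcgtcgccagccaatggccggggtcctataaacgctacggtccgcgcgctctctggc
LDHA start 1, chr11:18394313-18394562 (plus strand): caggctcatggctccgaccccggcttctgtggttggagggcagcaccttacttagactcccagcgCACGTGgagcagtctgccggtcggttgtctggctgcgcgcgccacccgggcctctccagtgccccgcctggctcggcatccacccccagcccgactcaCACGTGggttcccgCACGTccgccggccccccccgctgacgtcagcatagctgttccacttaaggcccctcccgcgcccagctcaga
RefSeq promoters were matched for 29 of the 33 members, and SLC2A3, PFKFB2, SLC16A1 and PDP1 had no entry. In the promoter nearest to the start of the gene, 10 of the 29 (34.5%) held ACGTG on either strand, against 20.3% of 16123 matched genes and 18.5% of all 35116 promoters of this length. The nearest RefSeq start could still be distant from the start of the counted gene, by 11189 bases for ALDOA, 1548 for PGAM1 and 1472 for HK2. ALDOA and HK2 are among the 10. The full CACGTG, which reads the same on both strands and so holds 2 overlapping ACGTG matches, was found in 3 members (10.3%) and in 7.39% of matched genes. The AP-1 element TGANTCA, searched on both strands, was found only in ENO2 (3.45%), against 5.38% of matched genes. Of the 6 members with an entry that rose at least 2-fold with EC359, 1 (HK2) held ACGTG in its nearest promoter, against 9 of the other 23. The 6 include PDK4, whose nearest promoter held 0 matches. PDK4 passed the filter on low counts mainly through the treated groups, so this tally is a description. For PDK1 the nearest start (start 1) held none and the next start held 2, so this tally depends on the start chosen.

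In untreated cells the members spanned a wide range of levels, given here as RPKM (library-scaled counts per kilobase of exon), the scale on which genes can be compared with each other. GAPDH, the dehydrogenase of the triose phosphate step, stood at 2569 ± 31.8 RPKM (SD, n = 3) and ranked 7 of the 14865 genes that passed the filter on low counts. It was followed by ENO1 at 791 RPKM, PKM at 681 RPKM and TPI1 at 597 RPKM. Apart from GAPDH, 11 members lay above 100 RPKM, 12 between 10 and 100, 5 between 1 and 10 and 4 at 1 RPKM or less. The lowest were ALDOC at 0.194 RPKM and PDK4 at 0.0804 RPKM, both close to the limit of the filter. The sum over the 33 members was 17604 ± 125 CPM in control, 21859 ± 230 CPM with EC359, 16875 ± 172 CPM with trametinib and 20941 ± 251 CPM with the combination (SD, n = 3 each). CPM, library-scaled counts (TMM) with no division by length, are used below for comparisons between groups. These sums were untested and were carried mostly by the abundant enzymes of lower glycolysis.

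EC359 alone upregulated most of the 33 members and downregulated none, while other genes of these pathways, counted further below, moved in both directions. Of the 33 members, 27 passed as higher than in control and 0 as lower, with a threshold of 0.05 on the adjusted p-value (edgeR's quasi-likelihood test, Benjamini-Hochberg adjustment over all genes tested), while 6 did not pass. Across all genes tested, 30.8% were higher and 30.3% lower. As the members were chosen with earlier results known, this contrast is a description. Of 18 other glycolysis genes tested, 4 were higher and 8 lower. Of 11 other pentose phosphate genes, 1 was higher and 6 lower. At least 2-fold, 7 members were higher, against 4.19% of all genes. These counts include PDK4, which passed the low-count filter mainly through the treated groups, and without it 26 of 32 members were higher, 6 of them at least 2-fold. The median log2 fold change was 0.33 over the members and -0.01 over all genes. The changes at least 2-fold were in the glucose transporters SLC2A1 and SLC2A3, in HK2, in PFKFB3 and PFKFB4, and in PDK1 and PDK4. When libraries were scaled by total counts only, the median of all genes moved to -0.15, 24 members were higher and 3 (LDHB, PDHA1 and PGAM1) were lower, and the members' median was 0.20. Of all 14865 genes, 3115 were higher and 6677 lower at this scaling.

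**Figure D1:**
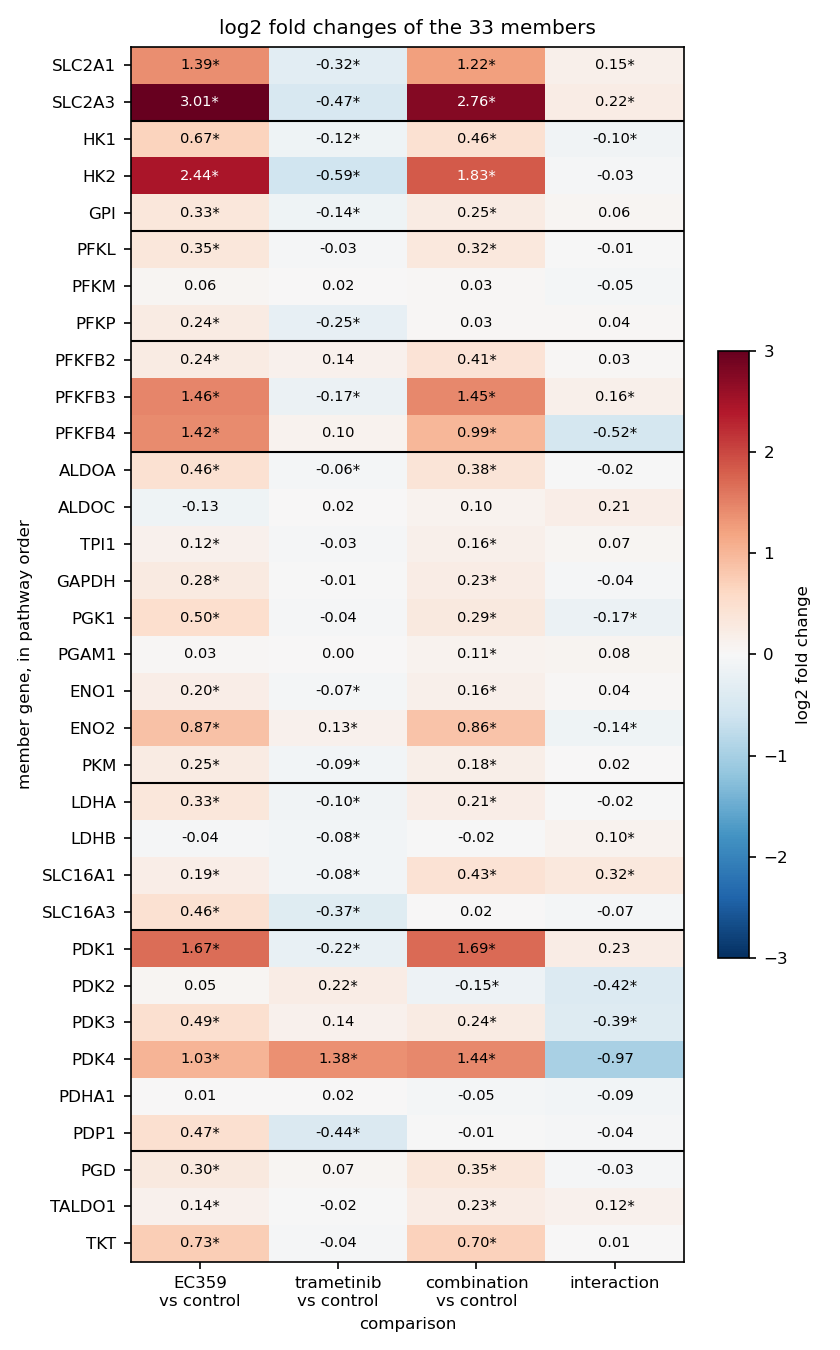
Log2 fold changes of the 33 members (lines of the map, in pathway order, with black lines between roles) in 4 comparisons (columns); red is higher, blue is lower, and an asterisk marks an adjusted p-value under 0.05. In the EC359 column SLC2A3 (3.01) and HK2 (2.44) are the darkest, and the trametinib column is pale, with PDK4 (1.38) the one value over 1.

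Both glucose transporters rose with EC359. SLC2A3 (GLUT3, chromosome 12 from 7919228 to 7936296 in hg38), a high-affinity transporter, was at 24.3, 23.7 and 21.3 CPM in the control libraries, 191, 185 and 180 CPM with EC359, 16.9, 16.1 and 16.8 CPM with trametinib, and 159, 153 and 156 CPM with the combination. The 4 groups did not overlap, and both groups that received EC359 lay far above both that did not. Compared to control, SLC2A3 changed 8.05-fold with EC359 (log2 fold change 3.01, standard error 0.04, edgeR adjusted p = 5.9e-54) and 6.76-fold with the combination (log2 fold change 2.76, standard error 0.04). Trametinib alone lowered it by a log2 fold change of -0.47 (edgeR adjusted p = 1.1e-10). SLC2A3 has a near-identical neighbour, SLC2A14, which took at most 2.53% of the counts of the pair in any library. SLC2A1 (GLUT1, chromosome 1 from 42925375 to 42959176), the main basal glucose transporter, was at 56.2, 57.4 and 57.0 CPM in control, 146, 147 and 154 CPM with EC359, 45.1, 46.6 and 44.7 CPM with trametinib, and 130, 130 and 137 CPM with the combination. It showed the same order of groups as SLC2A3, with smaller changes. Its log2 fold change was 1.39 with EC359 (standard error 0.03), -0.32 with trametinib (standard error 0.04) and 1.22 with the combination (standard error 0.03).

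At the hexokinase step the inducible isoform moved most. HK2 (chromosome 2 from 74832655 to 74893354), an insulin-responsive hexokinase that binds to mitochondria, was at 12.8, 12.2 and 13.7 CPM in control, 72.2, 67.5 and 71.3 CPM with EC359, 9.46, 8.20 and 7.98 CPM with trametinib, and 46.3, 44.9 and 46.4 CPM with the combination. The groups were all apart. EC359 changed it 5.44-fold (log2 fold change 2.44, standard error 0.05, edgeR adjusted p = 5.7e-42) and trametinib by a log2 fold change of -0.59 (standard error 0.07, edgeR adjusted p = 5.7e-10). In the combination group HK2 remained 3.55-fold above control, and below EC359 alone by a log2 fold change of -0.62 (edgeR adjusted p = 8.7e-17). HK1, the constitutive hexokinase, was the more abundant isoform throughout, with 202, 200 and 200 CPM in control, 328, 314 and 319 CPM with EC359, 186, 187 and 183 CPM with trametinib, and 280, 277 and 271 CPM with the combination. Its log2 fold changes were 0.67, -0.12 and 0.46, all past the threshold. GPI, which isomerizes glucose 6-phosphate, changed by 0.33 for EC359, -0.14 for trametinib and 0.25 for the combination, again all past the threshold. Part of the exons of GPI (10 blocks of its annotation) also lie on alternate sequences of the genome, between which reads may have been divided.

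The catalytic phosphofructokinases, which commit glucose to glycolysis, changed little. PFKP, the platelet isoform and the most abundant of the 3, rose from 700 ± 1.36 CPM to 828 ± 6.72 CPM with EC359, fell to 589 ± 6.52 CPM with trametinib and stood at 715 ± 7.34 CPM with the combination (SD, n = 3 each), where it did not pass the threshold against control (log2 fold change 0.03, edgeR adjusted p = 0.21). PFKL, the liver isoform, had log2 fold changes of 0.35 with EC359 and 0.32 with the combination, both past the threshold, and -0.03 with trametinib, which did not pass. PFKM, the muscle isoform, passed in none of the 3 comparisons with control, with values from 0.02 to 0.06.

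Of the PFKFB enzymes, which make and break the main allosteric activator of phosphofructokinase, all 3 rose with EC359 and 2 of them at least 2-fold. PFKFB3 (chromosome 10 from 6144880 to 6235544), whose kinase activity greatly exceeds its phosphatase activity, was at 108, 109 and 109 CPM in control, 303, 301 and 292 CPM with EC359, 95, 99.8 and 95.8 CPM with trametinib, and 297, 298 and 295 CPM with the combination. The EC359 and combination libraries overlapped, and both lay clear of the others. The log2 fold change was 1.46 with EC359 (standard error 0.03, edgeR adjusted p = 4.2e-46), -0.17 with trametinib and 1.45 with the combination. PFKFB4 (chromosome 3 from 48517684 to 48556794), a bifunctional isoform, was at 10.2, 9.89 and 9.89 CPM in control, 28.1, 26.4 and 25.9 CPM with EC359, 9.83, 10.9 and 11.3 CPM with trametinib, and 21.2, 18.9 and 19.6 CPM with the combination. Unlike PFKFB3, its combination libraries all lay below those of EC359 alone. It changed by a log2 fold change of 1.42 with EC359 (standard error 0.07), by 0.10 with trametinib, which did not pass (edgeR adjusted p = 0.383), and by 0.99 with the combination (standard error 0.07). PFKFB2, the heart isoform, was at 6.50, 7.10 and 7.00 CPM in control, 7.56, 7.45 and 9.38 CPM with EC359, 7.46, 7.75 and 7.46 CPM with trametinib, and 9.26, 9.17 and 8.91 CPM with the combination. It rose with the combination (log2 fold change 0.41, standard error 0.10, edgeR adjusted p = 4.0e-04) and with EC359 (0.24, edgeR adjusted p = 0.0383). The call with EC359 was lost without EC359 replicate 3 (0.13), control replicate 1 (0.21) or control replicate 3 (0.26).

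**Figure D2:**
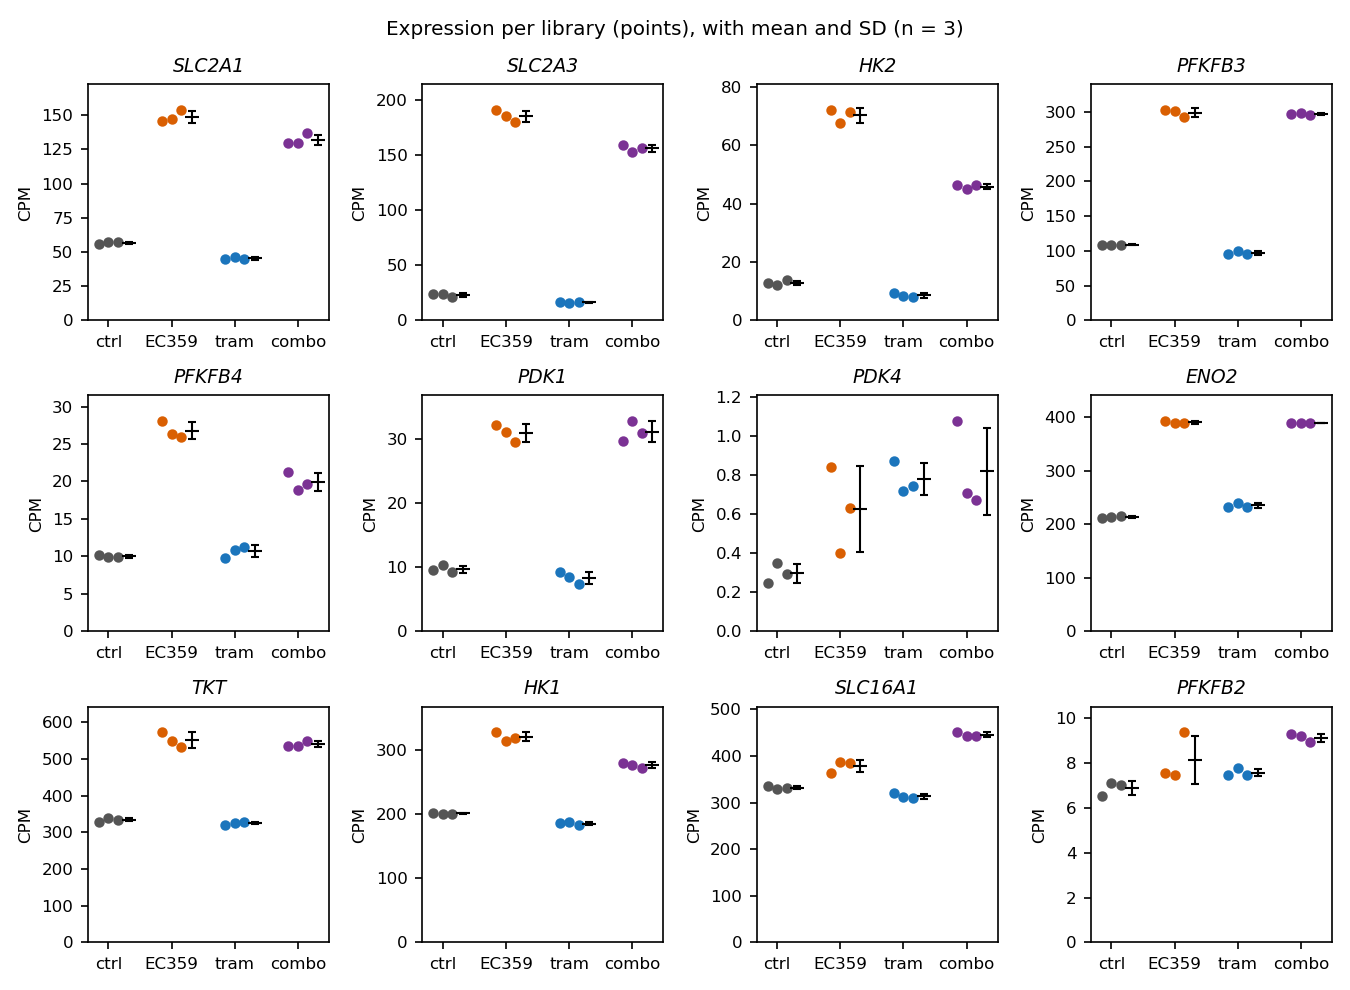
CPM (y axis, starting at 0) of the 12 members described library by library, in control (ctrl), EC359, trametinib (tram) and combination (combo) libraries (x axis); points are libraries and the black mark beside them is the mean with its SD (n = 3). In SLC2A1, SLC2A3, HK2, PFKFB3 and PDK1 the EC359 and combination libraries all lie above the control and trametinib libraries, while PDK4 stays at about 1 CPM or less.

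From aldolase to pyruvate kinase, 7 of 9 members rose with EC359 and 8 of 9 with the combination, none of them 2-fold. ENO2, the neuronal enolase (chromosome 12 from 6914450 to 6923696), changed most, from 212, 214 and 216 CPM in control to 393, 389 and 389 CPM with EC359. It was at 233, 240 and 232 CPM with trametinib and 389, 389 and 388 CPM with the combination. EC359 and combination libraries coincided, and trametinib libraries lay slightly above control. The log2 fold changes were 0.87, 0.13 and 0.86 (standard error 0.02 each, edgeR adjusted p of 1.8e-37, 1.0e-05 and 1.9e-37). The other members that rose with EC359 did so by 0.12 (TPI1) to 0.50 (PGK1, the first ATP-forming kinase of the pathway), with 0.46 for ALDOA, 0.28 for GAPDH, 0.25 for PKM and 0.20 for ENO1. PGAM1, the mutase between PGK1 and enolase, was at 384 ± 4.72 CPM in control and 392 ± 4.82 CPM with EC359, which did not pass, and rose to 416 ± 13.6 CPM with the combination (log2 fold change 0.11). When scaled by total counts only, TPI1 with EC359 (-0.01) and PGAM1 with the combination (-0.03) turned below 0 without passing, and ENO1, PKM and TPI1 no longer passed with the combination. ALDOC, a brain aldolase, had 3 to 16 counts per library and passed nowhere, with a log2 fold change of 0.10 (standard error 0.48) for the combination. Trametinib lowered ALDOA, ENO1 and PKM slightly, by -0.06, -0.07 and -0.09. The ALDOA call was lost without control replicate 2 (-0.06), control replicate 3 (-0.06) or trametinib replicate 1 (-0.05), and that of ENO1 without control replicate 2 (-0.06).

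At lactate formation and export the members parted. LDHA, which favours the reduction of pyruvate to lactate, rose from 1135 ± 11.4 CPM to 1430 ± 16.5 CPM with EC359 (log2 fold change 0.33) and 1312 ± 24.0 CPM with the combination (0.21), and fell to 1058 ± 24.4 CPM with trametinib (-0.10; SD, n = 3 each). LDHB, which favours the reverse reaction, was 751 ± 9.53 CPM in control and 729 ± 15.2 CPM with EC359, and did not pass there (log2 fold change -0.04, edgeR adjusted p = 0.11). The lactate exporters SLC16A1 (MCT1) and SLC16A3 (MCT4) had different values with both agents together. SLC16A1 (chromosome 1 from 112911848 to 112956353) was at 335, 330 and 332 CPM in control, 364, 388 and 386 CPM with EC359, 320, 312 and 310 CPM with trametinib, and 452, 444 and 443 CPM with the combination. The combination libraries were the highest of all. SLC16A1 thus rose by 0.19 with EC359 and 0.43 with the combination and fell by 0.08 with trametinib on the log2 scale, the last lost without trametinib replicate 3 (-0.07). SLC16A3, the exporter typical of strongly glycolytic cells, rose from 214 ± 6.97 CPM to 294 ± 7.22 CPM with EC359, fell to 165 ± 5.79 CPM with trametinib and stood at 216 ± 5.95 CPM with the combination (SD, n = 3 each). With both agents it did not pass against control (log2 fold change 0.02, approximate 95% interval -0.04 to 0.07).

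Among the genes that control pyruvate dehydrogenase, PDK1 had the largest change with EC359. PDK1 (chromosome 2 from 172555373 to 172625623), a kinase that inactivates the complex, was at 9.53, 10.3 and 9.27 CPM in control, 32.3, 31.1 and 29.6 CPM with EC359, 9.21, 8.51 and 7.33 CPM with trametinib, and 29.7, 32.9 and 31.0 CPM with the combination. EC359 and combination libraries overlapped. The changes were 3.19-fold with EC359 (log2 fold change 1.67, standard error 0.07, edgeR adjusted p = 6.3e-29) and 3.22-fold with the combination. The decrease with trametinib (-0.22, edgeR adjusted p = 0.0322) was lost without control replicate 1 (-0.23), control replicate 2 (-0.17), trametinib replicate 2 (-0.23) or trametinib replicate 3 (-0.13). PDK2, the most abundant PDK per length, was 33.4 ± 1.25 CPM in control, 34.7 ± 1.09 CPM with EC359, 38.9 ± 1.27 CPM with trametinib and 30.2 ± 1.45 CPM with the combination (SD, n = 3 each). It passed upward with trametinib (0.22) and downward with the combination (-0.15), the only member lower in that comparison, and the latter was lost without control replicate 2 (-0.12) or combination replicate 2 (-0.11). PDK3 rose by 0.49 with EC359, and its value of 0.24 for the combination lay at the threshold (edgeR adjusted p = 0.0474, and 0.0523 with the replicate number as a block). It was lost without combination replicate 1 (0.18), control replicate 1 (0.14), control replicate 2 (0.25) or trametinib replicate 1 (0.24).

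PDK4 (chromosome 7 from 95583497 to 95596613), a kinase induced in fasting, was near the limit of detection, with 7, 11 and 10 counts in control, 20, 12 and 16 with EC359, 28, 19 and 23 with trametinib, and 27, 19 and 18 with the combination. These correspond to 0.250, 0.349 and 0.294 CPM in control, 0.845, 0.403 and 0.631 CPM with EC359, 0.874, 0.722 and 0.746 CPM with trametinib, and 1.08, 0.708 and 0.676 CPM with the combination. Each treated group lay above control, and the treated groups overlapped each other. It entered the test mainly through the treated groups: the filter scales by total counts without the TMM factor, and on that scale all treated libraries but only 1 control library (11 counts) reached its minimum of 0.354 CPM. Its passing the threshold (log2 fold changes of 1.03, 1.38 and 1.44) is therefore given as a description. The call with EC359 was lost without EC359 replicate 1 (0.77) or control replicate 1 (0.93). PDP1, a phosphatase that reactivates the complex, rose from 68.3 ± 2.84 CPM to 94.9 ± 1.89 CPM with EC359 (log2 fold change 0.47), fell to 50.1 ± 2.56 CPM with trametinib (-0.44) and was 68.0 ± 1.46 CPM with the combination (SD, n = 3 each), where it did not pass (-0.01). PDHA1, the catalytic subunit that PDK and PDP act on, passed in none of the 3 comparisons with control, with values from -0.05 to 0.02.

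All 3 pentose phosphate members rose with EC359 and with the combination, and none passed with trametinib. TKT, the transketolase that links the pathway back to glycolysis (chromosome 3 from 53224707 to 53256114), was at 329, 338 and 333 CPM in control, 574, 548 and 533 CPM with EC359, 321, 326 and 327 CPM with trametinib, and 536, 534 and 550 CPM with the combination. Groups with and without EC359 were far apart. Its log2 fold change was 0.73 with EC359 (standard error 0.02, edgeR adjusted p = 3.4e-33) and 0.70 with the combination (standard error 0.02). PGD, the second NADPH-forming enzyme of the pathway, changed by 0.30 with EC359 and 0.35 with the combination, and TALDO1, the transaldolase, by 0.14 and 0.23. Scaled by total counts only, TALDO1 no longer passed with EC359 (0.00).

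Trametinib alone moved the members little and mostly downward. Of the 33, 16 were lower and 3 higher than in control, against 15.2% lower and 13.0% higher of all genes tested, and the median was -0.04 over the members and 0.00 over all genes. The lower members ran from -0.06 (ALDOA) to -0.59 (HK2), with none at least 2-fold lower (0.955% of all genes were). Those higher were ENO2, PDK2 and PDK4, of which PDK4 alone was at least 2-fold higher (0.478% of all genes were), so that without it 0 members reached 2-fold. Both glucose transporters, all 3 genes of hexose phosphorylation and isomerization and all 4 of lactate formation and export were lower, while no pentose phosphate member passed. Scaled by total counts only, 11 members were lower and 4 higher, against 1770 lower and 2484 higher of all 14865 genes.

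With the combination, 25 members were higher and 1 lower than in control, against 35.0% and 34.7% of all genes tested, and 6 members were at least 2-fold higher, against 7.27% (24 higher and 5 at least 2-fold without PDK4). The median was 0.25 over the members and -0.01 over all genes. Scaled by total counts only, 20 members were higher and 7 lower, with a median of 0.11 over the members and -0.14 over all genes. Of all 14865 genes, 3838 were then higher and 6811 lower. The comparisons of EC359, trametinib and the combination with control share the control libraries. Side by side, 12 members were higher with EC359, lower with trametinib and higher with the combination, among them SLC2A1, SLC2A3, HK1, HK2, PFKFB3, PDK1 and LDHA (36.4% of the members, against 3.24% of all genes tested). PFKP, SLC16A3 and PDP1 were higher with EC359 and lower with trametinib, and did not pass with the combination (9.09%, against 1.09% of all genes). A further 10 members were higher with EC359 and the combination without passing with trametinib (30.3%, against 2235 of all 14865 genes).

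Direct comparison of the combination with each single agent gave the effect of the other agent in its presence. Adding EC359 to trametinib left 27 members higher and 2 lower than trametinib alone, against 35.3% and 32.9% of all genes, with a median of 0.31 over the members and 0.00 over all genes. At least 2-fold, 5 were higher, against 6.12%, namely SLC2A3 (3.23), HK2 (2.42), PDK1 (1.90), PFKFB3 (1.62) and SLC2A1 (1.54). The 2 lower members were PDK2 (-0.37) and PDHA1 (-0.08). The PDHA1 call was lost without trametinib replicate 2 (-0.07), trametinib replicate 3 (-0.08), combination replicate 2 (-0.06) or combination replicate 3 (-0.06). Among the higher members, the LDHB call (0.06) was lost without trametinib replicate 2 or 3 or combination replicate 1 or 2 (0.05 in each). Scaled by total counts only, 23 were higher and 5 lower, and LDHB (-0.11) and PGAM1 (-0.05) turned to the lower side. Of all 14865 genes, 3500 were higher and 7078 lower at that scaling. Adding trametinib to EC359 left 15 members lower and 3 higher than EC359 alone, against 25.2% and 24.1% of all genes, with a median of -0.05 over the members and 0.00 over all genes. None reached 2-fold in either direction (1.69% of all genes were higher and 1.55% lower by that much). HK2 (-0.62), PDP1 (-0.48), SLC16A3 (-0.44) and PFKFB4 (-0.43) were the members with the largest decreases, and the 3 higher were SLC16A1 (0.23), PGAM1 and TALDO1 (0.09 each). The TALDO1 call was lost without EC359 replicate 1 (0.07) or combination replicate 3 (0.07). The GPI call (-0.09) was lost without EC359 replicate 3 (-0.05), combination replicate 2 (-0.07) or combination replicate 3 (-0.08), and that of GAPDH (-0.05) without EC359 replicate 1 (-0.03), combination replicate 1 (-0.05) or combination replicate 3 (-0.05).

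The effect of EC359 without trametinib and that with trametinib were measured on separate libraries and could be set against each other. Over the 33 members the 2 log2 fold changes had a Pearson r of 0.947 and a Spearman rho of 0.811, against 0.79 and 0.786 over all 14865 genes, as a description across genes that are not independent replicates. Both comparisons called 25 members, all of them higher, and 0 in opposite directions. Over all genes, 7644 were called in both, 3824 of them higher, and the direction was the same in 96.4%. For the effect of trametinib without and with EC359, r was 0.633 and rho 0.455 over the members, against 0.429 and 0.367 over all genes. The member values of r and rho for both effects include PDK4, which passed the low-count filter mainly through the treated groups. They were not calculated without PDK4 and are given as a description only. Both comparisons called 13 members, 11 lower in both and 2 in opposite directions, so that 84.6% had the same direction, near the 85.9% of the 2968 genes called in both. The 11 were SLC2A1, SLC2A3, HK1, HK2, GPI, PFKP, ALDOA, PKM, LDHA, SLC16A3 and PDP1, and the 2 were SLC16A1 and PDK2.

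**Figure D3:**
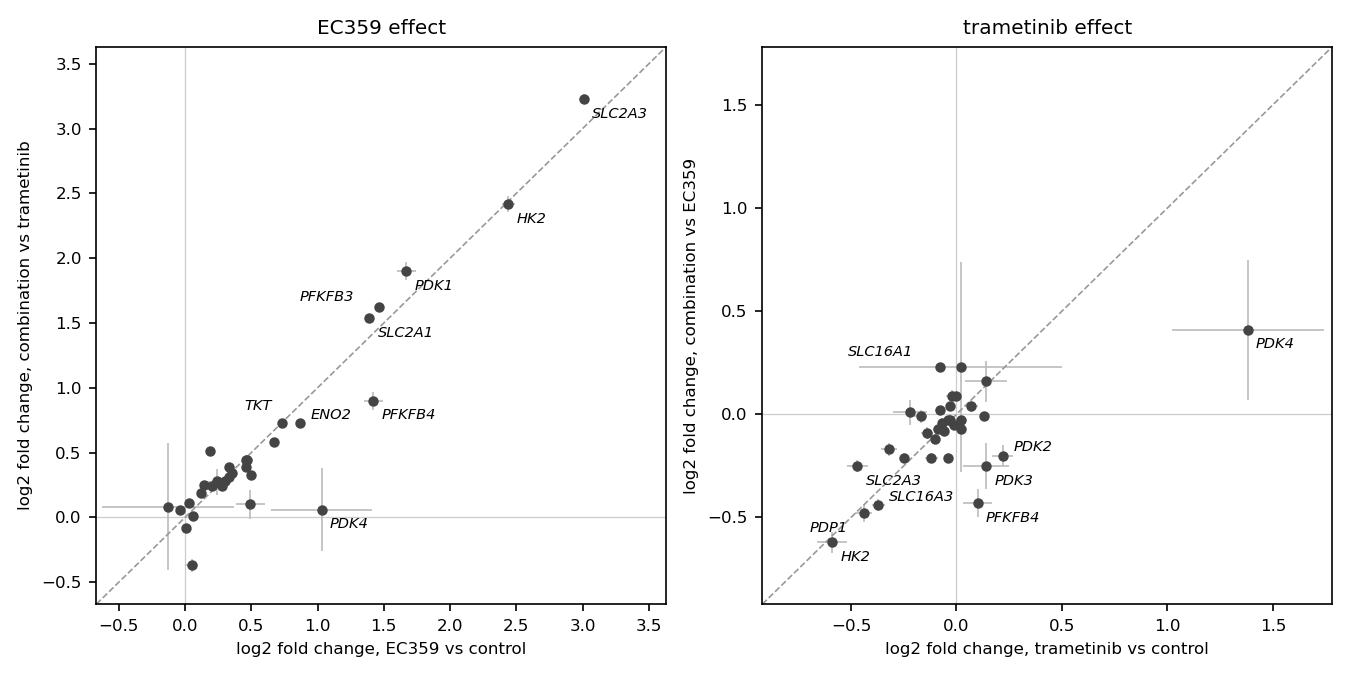
Each point is 1 of the 33 members, with standard errors as grey bars and the line of equal values dashed. Left, the log2 fold change of EC359 against control (x) and of the combination against trametinib (y), where points run along the line up to SLC2A3 (3.01 and 3.23). Right, trametinib against control (x) and the combination against EC359 (y), where most values lie between -0.6 and 0.2 and PDK4 (1.38 and 0.41) stands apart with wide errors.

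The interaction, which asks whether the combination departed from the single agents' log2 changes added together (called the sum here), passed for 6 members above the sum and 6 below, against 14.4% and 15.9% of all genes tested. None reached 2-fold, against 0.881% of all genes above and 0.686% below. PFKFB4 had the largest called departure (-0.52, standard error 0.10, edgeR adjusted p = 3.3e-05), and PDK2 was next (-0.42, standard error 0.07, edgeR adjusted p = 3.8e-06). SLC16A1 lay furthest above the sum (0.32, standard error 0.03, edgeR adjusted p = 9.3e-11). For HK2 the combination lay close to the sum (-0.03, approximate 95% interval -0.19 to 0.14), as for TKT (0.01, -0.06 to 0.08). SLC2A3 (0.22), PFKFB3 (0.16) and SLC2A1 (0.15) were slightly above it, and the SLC2A1 call was lost without combination replicate 3 (0.13). Scaled by total counts only, 3 members were above the sum and 8 below, against 1735 above and 2842 below of all 14865 genes.

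The balance of isoforms within a family was compared as a share of the summed RPKM of the family in each library, with no test. SLC2A3 took 25.8% to 28.8% of the SLC2A1 and SLC2A3 sum in control, 52.2% to 54.9% with EC359, 24.3% to 25.9% with trametinib and 51.6% to 53.3% with the combination. EC359 thus brought SLC2A3 from the lesser to the greater of the 2 transporters per length, with or without trametinib. HK2 went from 3.56% to 3.96% of the hexokinase pair in control to 11.5% to 11.9% with EC359 and 8.92% to 9.36% with the combination, and was 2.57% to 2.98% with trametinib. HK1 remained the greater isoform in every library. PDK1 went from 13.3% to 14.0% of the PDK sum to 31.5% to 33.3% with EC359 and 33.6% to 38.2% with the combination, while PDK2 went from 81.3% to 81.8% to 61.7% to 63.5% and 56.8% to 60.3%. PDK2 still held the largest share in every group. ENO2 held a median of 10.0% of the enolase sum in control and 15.1% with EC359. LDHA held 48.5% to 48.8% of the lactate dehydrogenase sum in control and 54.7% to 55.5% with EC359, and so passed LDHB per length. In CPM, LDHA was already the higher of the pair in control (1135 against 751), so this crossing rests on the exonic lengths used. SLC16A1 held 44.2% to 46.1% of its pair in control, 40.2% to 41.2% with EC359, 49.4% to 51.2% with trametinib and 51.6% to 53.4% with the combination, opposite in direction for EC359 alone and for both agents. PFKP held 79.5% to 82.8% of phosphofructokinase in every library.

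**Figure D4:**
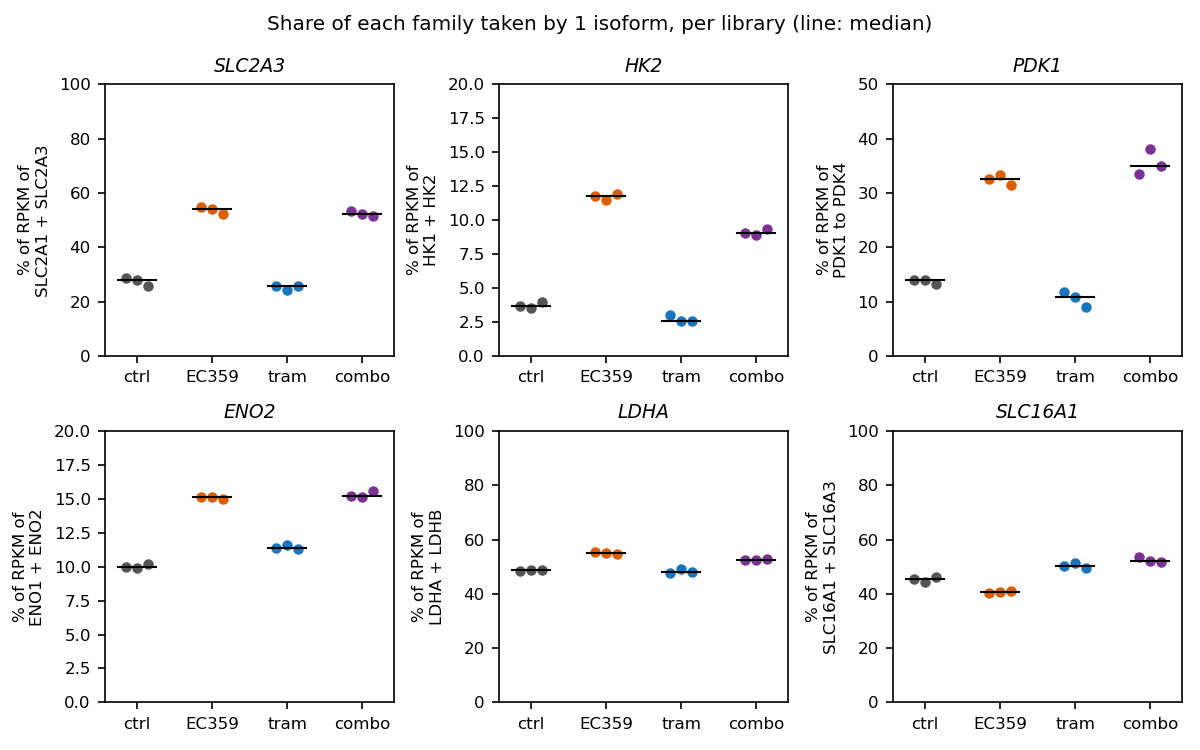
Share of the summed RPKM of a family (y axis, percent) taken by 1 isoform in each library (points, with the median of 3 as a line) of the control (ctrl), EC359, trametinib (tram) and combination (combo) groups (x axis). SLC2A3, HK2 and PDK1 take larger shares in all EC359 and combination libraries than in any control or trametinib library, while SLC16A1 is lowest with EC359 alone and highest with the combination.

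The size of the EC359 effect was also set against the level of each member. To keep level and change in separate libraries, members were sorted by their RPKM in the trametinib libraries. The 12 members at 100 RPKM or more had a median log2 fold change of 0.24 with EC359 and 0 were at least 2-fold higher, against 0.744% of all genes of this level. The 13 members from 10 to 100 RPKM had a median of 0.35, with 2 (SLC2A1 and PFKFB3) at least 2-fold higher, against 1.99% of all genes of this level. All 4 members from 1 to 10 RPKM (SLC2A3, HK2, PFKFB4 and PDK1) were at least 2-fold higher, with a median of 2.06, against 5.12% of all genes of this level. By its control level PDK2 would also belong here (9.86 RPKM, against 11.5 RPKM with trametinib). It changed by 0.05 with EC359 and did not pass, so the tally of this class depends on the libraries used for sorting. The 4 members under 1 RPKM (PFKFB2, ALDOC, PDK3 and PDK4) had a median of 0.37, from -0.13 to 1.03, and 1 of them (PDK4) was at least 2-fold higher, against 6.92%, so the change did not grow steadily toward lower levels. These classes are small and are given as a description.

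Other genes of glucose metabolism, in lists that do not overlap with the members, were counted in the same way. Over all genes tested, 30.8% were higher and 30.3% lower with EC359, and 35.0% and 34.7% with the combination. Of 18 other glycolysis genes tested, 4 were higher and 8 lower with EC359, and 6 and 7 with the combination (median -0.01). SLC2A13 (0.79), a myo-inositol transporter, and HKDC1 (0.75), a hexokinase-like enzyme, had the largest called increases with the combination, and SLC2A10 (-1.45) and BPGM (-0.77), which diverts a triose intermediate to bisphosphoglycerate, the largest called decreases. Of 11 other pentose phosphate genes, 1 was higher and 6 lower with EC359, and 2 and 6 with the combination (median -0.26). PGLS rose by 0.16 with the combination, while H6PD (-0.80) and RPIA (-0.61) had the largest called decreases. In the pyruvate dehydrogenase complex and mitochondrial pyruvate carrier, 1 of 9 was higher and 5 lower with EC359, and 3 and 4 with the combination (median -0.02), among them PC (0.59), which carboxylates pyruvate, MPC2 (0.30), the phosphatase PDP2 (-1.24) and DLD (-0.28). Of 20 genes of the tricarboxylic acid cycle, 5 were higher and 10 lower with EC359, and 5 and 11 with the combination (median -0.10), among them OGDH (-0.84), IDH1 (-0.45) and IDH3B (0.32). Of 11 glycogen genes, 5 were higher and 4 lower with EC359, and 4 and 2 with the combination (median 0.03), with GBE1 (0.56) and PPP1R3B (0.56) up and PPP1R3D (-1.39) and UGP2 (-0.42) down. With trametinib alone, the 5 lists had 3, 0, 0, 0 and 4 genes higher and 2, 2, 1, 2 and 2 lower, in the same order. Over all genes tested, 13.0% were higher and 15.2% lower with trametinib.

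Regulators of glycolysis moved in both directions. TXNIP, which restrains glucose uptake, fell from 6.15 CPM in control to 2.43 CPM with EC359 (log2 fold change -1.33, edgeR adjusted p = 1.6e-11) and 1.54 CPM with the combination (-2.00), and was at 6.83 CPM with trametinib (0.15, not passing). Its close relative ARRDC4 passed in none of these comparisons. MLX, the partner of the glucose-sensing factors MLXIP and MLXIPL, fell with trametinib (-0.24) and with the combination (-0.74) and did not pass with EC359 (-0.08). MLXIP rose by 0.29 with EC359 and 0.40 with the combination, and MLXIPL, at 1.14 CPM in control, by 0.66 with the combination. MYC, a transcription factor with glycolytic genes among its targets, rose by 0.75 with EC359, fell by 0.52 with trametinib on the log2 scale and rose by 0.43 with the combination. TIGAR, which degrades the activator made by the PFKFB enzymes, fell with EC359 (-0.43) and the combination (-0.61) and did not pass with trametinib (-0.12).

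As a check of the MEK inhibitor, all 8 ERK output genes were at least 2-fold lower with trametinib, from -2.07 to -6.28. With EC359 alone, 7 of the 8 were higher, 4 of them at least 2-fold (median 1.06, up to 4.90 for EGR1). With the combination, 7 were lower than in control, 6 of them at least 2-fold, and EGR1 was higher (0.30), while all 8 were at least 2-fold lower than with EC359 alone. Epithelial markers (KRT7, KRT8, KRT18, PAX8 and EPCAM tested) summed to 3579 to 4093 CPM in all libraries, with KRT19 at or near 0. The 5 leukocyte genes, of which 1 passed the filter, summed to 0.465 to 1.07 CPM, with PTPRC and CD3E at 0 in every library, and the 4 endothelial genes summed to 0.263 to 1.24 CPM. The fibroblast list summed to 429 to 449 CPM in control, 235 to 248 CPM with EC359, 538 to 546 CPM with trametinib and 341 to 361 CPM with the combination. Almost all of this was COL1A1, while DCN was at 0 and COL1A2 near 0, and COL1A1 was lower in the groups in which most members were higher (log2 fold change -0.92 with EC359). Its part in the results was not tested.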

How the data were processed

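RNA from OVCAR8 cells was measured in 4 groups of 3 libraries. The deposited values are estimated counts: per the file headers, the authors used featureCounts 1.5.0-p1 with read pairs, the reverse strand and mapping qualities of at least 2, added up each gene's exons, and split a read with several placements or genes into fractions. The submitters' processing notes name bcl2fastq, HISAT2 and hg38. Counts were not normalized by the authors. Between 12.4% and 15.1% of genes per library were not whole, and counts were rounded.

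In R 4.3.3, the low-count filter filterByExpr in edgeR 4.0.16, with a count of 10 and a total of 15 as minima, kept 14865 of 26485 genes and all 33 members. TMM factors were 0.947 to 1.06 and the biological coefficient of variation 3.95%. One robust quasi-likelihood model over 12 libraries gave 6 comparisons, with Benjamini-Hochberg adjustment over all genes tested and a threshold of 0.05. The count of 3 that a 0 allows equals 0.0924 to 0.121 CPM, for counting error only. No pair of replicates differed by so little as to be 1 library. The method was tested on simulated data. RPKM used the exonic length in the files, and promoters came from RefSeq GRCh38.p14, the assembly of the hg38 coordinates. The members and lists were chosen with earlier results of these data known.

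Values per library are given for members changed at least 2-fold in any treatment against control or with a called interaction of at least 0.5, then for the largest called changes in the combination up to 12 members. The other members are given by role, the other lists by counts and up to 2 genes each way, and regulators in full. Of the other lists, 2 genes that this rule names are not reported here. SLC2A14 was added after its values were seen. Alternatives were DESeq2 1.42.0, its size factors, scaling by total counts only, a 2-fold minimum, no filter, a floor of 10 counts in all libraries, fits of the compared groups alone, a block for the replicate number, and each library left out.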

Additional observations from a re-analysis of the deposited data

Results flagged for a closer look

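For 12 members (36.4%, against 30.3% of all genes tested) the effect of EC359 differed with and without trametinib, as tested by the interaction term of edgeR's quasi-likelihood fit with Benjamini-Hochberg adjustment. The interaction on the log2 scale was above 0 for SLC16A1 (0.32), SLC2A3 (0.22), PFKFB3 (0.16), SLC2A1 (0.15), TALDO1 (0.12) and LDHB (0.10). It was below 0 for PFKFB4 (-0.52), PDK2 (-0.42), PDK3 (-0.39), PGK1 (-0.17), ENO2 (-0.14) and HK1 (-0.10). PGK1, for instance, rose by 0.50 with EC359 alone and by 0.33 when EC359 was added to trametinib. PDK3 lay at the threshold (edgeR adjusted p = 0.049) and was at 0.0555 with the replicate number as a block.

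Of these calls, 5 were lost in at least 1 of the fits that left out a library. The HK1 call was lost without control replicate 2 or 3, EC359 replicate 1 or 3, trametinib replicate 1 or 2 or combination replicate 3 (-0.10 to -0.08). That of TALDO1 was lost without control replicate 2 or 3, EC359 replicate 1, trametinib replicate 1 or 2 or combination replicate 3 (0.09 to 0.11), and that of PDK3 without control replicate 1 or 2, EC359 replicate 1 or 2, trametinib replicate 1 or 3 or combination replicate 2 or 3 (-0.39 to -0.29). The LDHB call was lost without control replicate 1 (0.09), EC359 replicate 1 (0.08) or combination replicate 2 (0.08), and that of SLC2A1 without combination replicate 3 (0.13). The calls of SLC16A1, SLC2A3, PFKFB3, PFKFB4, PDK2, PGK1 and ENO2 were kept with each library left out in turn.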

How the results depend on the processing

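Of the 131 member comparisons that passed the threshold, 126 were kept in the same direction by DESeq2, 131 with its size factors, 126 without a filter, 115 of 119 in fits of only the groups compared, 128 of 128 with at least 10 counts in every library and 123 to 130 with each library left out. DESeq2 lost PFKFB2 with EC359 (0.25), PDK1 with trametinib (-0.21), PDK3 with the combination (0.24) and the interactions of TALDO1 (0.11) and PDK3 (-0.40). Total counts only kept 111, lost 18 and turned 2 (LDHB and PGAM1, combination against trametinib), and gained 14. It gave 3 members lower with EC359, 7 lower with the combination, 5 lower for the combination against trametinib and 3 above the sum in the interaction. The counts over all genes at this scaling are given above with each comparison. The all-gene median moved by this scaling to -0.15, -0.14 and -0.16 and the members' medians to 0.20, 0.11 and 0.15 for EC359, the combination, and the combination against trametinib.

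A 2-fold minimum left 7 members higher with EC359, 1 higher and 0 lower with trametinib, 6 higher and 0 lower with the combination, 0 and 0 for the combination against EC359, 5 higher and 0 lower for the combination against trametinib, and 0 and 0 in the interaction. PDK4 is 1 of those higher with EC359, trametinib and the combination. With a library left out, the number of members lower with the combination lay between 0 and 2 (0 without control replicate 2 or combination replicate 2, and 2 without combination replicate 1), and that of the combination against trametinib between 1 and 2 (1 without trametinib replicate 2 or 3 or combination replicate 2 or 3). The median for the combination was 0.32 without control replicate 3.

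The replicate numbers did not pair the libraries: deviations of same-numbered libraries correlated with r of -0.157 to 0.0876 over 18 pairs. With the replicate number as a block, 27 members were higher with EC359 and 24 with the combination, and 129 of the 131 calls were kept, with PDK3 lost in the combination against control and in the interaction. The cause of these shifts was not tested. Depth limits PDK4 and ALDOC, with 3 to 28 counts per library.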
